A study of Saccharomyces cerevisiae with 6 samples.

Results

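The promoters of 5 genes of budding yeast, GPP2, THO1, APL3, GCV1 and POP5, are described here by the transposon insertions that 6 transcription factors (TFs) directed to them. The 5 genes were chosen by their values in these same libraries, as promoters that passed a test for more Eds1 insertions than 4 other libraries and did not pass it for Rgt1. Not passing does not mean that Rgt1 was absent, and at GPP2 and THO1 the Rgt1 share was above that of the 4 libraries too. POP5 had too few insertions to be tested for Rgt1. They are 5 of 6002 protein-coding nuclear genes, and lie in 4 separate regions, because GPP2 and THO1 are transcribed away from each other and share the DNA between their start codons. A promoter is the 1 kb upstream of the start codon. The comparisons of Eds1 with Rgt1 and of either with the other libraries chose the genes, so for these 5 they are a description and support nothing.

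Calling cards record where a TF sits by what it leaves behind. The TF is fused to Sir4, a silencing protein that attracts the Ty5 retrotransposon, and Ty5 then inserts close to the DNA that the TF occupies. Eds1 and Rgt1 are paralogs of the zinc cluster family, TFs that bind DNA through a fold held by zinc ions. Rgt1 is known as the repressor of the hexose transporter genes when glucose is scarce, and far less is known of Eds1. The 5 genes have no pathway in common. Gpp2 is a glycerol-3-phosphate phosphatase that makes glycerol in osmotic stress, Tho1 is a nuclear RNA-binding protein linked to assembly of mRNA with protein during transcription, Apl3 is a large subunit of the AP-2 adaptor of endocytosis, Gcv1 is a subunit of the mitochondrial glycine cleavage complex, and Pop5 is a protein subunit of RNase P and RNase MRP.

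The 6 groups were strains carrying Eds1, Rgt1, Ino4, Leu3, Sfp1 or Zap1 as the Sir4 fusion, each with 1 library, and all were BY4741 with the genotype sir4D. A single clone of each strain was grown on galactose, which drives Ty5 from the GAL1/10 promoter, and insertions were then selected by their HIS3 marker. The TF fusion came from a plasmid, so its level need not be that of the natural protein. With 1 library per TF there is no replicate check, tests compare libraries, and intervals cover counting error only.

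The libraries held 30707 insertions for Eds1 and 29776 for Rgt1, against 15951 to 75550 for the other 4. They lay at 30024 distinct positions for Eds1 and 19524 for Rgt1, against 15325 to 59912 for the others, so repeated positions make up much of the Rgt1 total. The 10 richest bins of 1 kb took 6.77% of the Eds1 library and 44.9% of Rgt1, against 1.91% to 14.1% of the others, so a Rgt1 share outside those bins is low by construction. The median insertion had 3 reads in Eds1 and 4 in Rgt1, against 18 to 34 in the others. Within SIR4, deleted in these strains, the 6 libraries together had 2 insertions, both in Eds1. LEU2 and MET15, which BY4741 lacks, had 0 in all libraries, and URA3, lacking too, had 1, again in Eds1. On the chromosomes of the 5 genes the insertions avoided gene bodies best when positions were moved by at most 20 bp, so the gene table fitted the files there to well within the 1 kb windows.

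The 4 regions together held 57 Eds1 and 21 Rgt1 insertions, against 5 for Ino4, 28 for Leu3, 25 for Sfp1 and 10 for Zap1. Per 10000 insertions of the library these are 18.6 for Eds1 and 7.05 for Rgt1, against 3.13 for Ino4, 3.71 for Leu3, 6.99 for Sfp1 and 6.24 for Zap1. A single region, between GPP2 and THO1, gave 29 of the 57.

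The region between GPP2 and THO1 on chromosome V held the most insertions of the 4 regions. At GPP2 there were 29 Eds1 and 17 Rgt1 insertions, against 5 for Ino4, 14 for Leu3, 15 for Sfp1 and 7 for Zap1. Per 10000 insertions of each library these are 9.44 for Eds1 (95% exact interval 6.33 to 13.6) and 5.71 for Rgt1 (3.33 to 9.14), then 4.37 for Zap1, 4.19 for Sfp1, 3.13 for Ino4 and 1.85 for Leu3. Eds1 stood highest and Leu3 lowest, and the interval of Eds1 overlapped those of Rgt1, Ino4, Sfp1 and Zap1 but not that of Leu3 (1.01 to 3.11). Overlap of separate intervals does not measure a difference, and the ratios with their own intervals are given below. The THO1 window overlaps that of GPP2 by 973 bp and differed by a single Sfp1 insertion, so the values of both genes are one measurement.

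The shared region is 1027 bp long, and Eds1 insertions were spread over most of it. The 29 Eds1 insertions lay at 29 positions between 280722 and 281563 of the files, 40 to 881 bp upstream of GPP2 with a median of 528 bp. Rgt1 covered much the same stretch, 104 to 867 bp upstream with a median of 510 bp. One position, 510 bp upstream of GPP2, was recorded 3 times in the Rgt1 library and 2 times in Zap1, in different passes of the lines of each file. Of the 29 Eds1 positions, 9 also held an insertion of another library, 31.0%, against 21.9% over the whole Eds1 library.

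**Figure D1:**
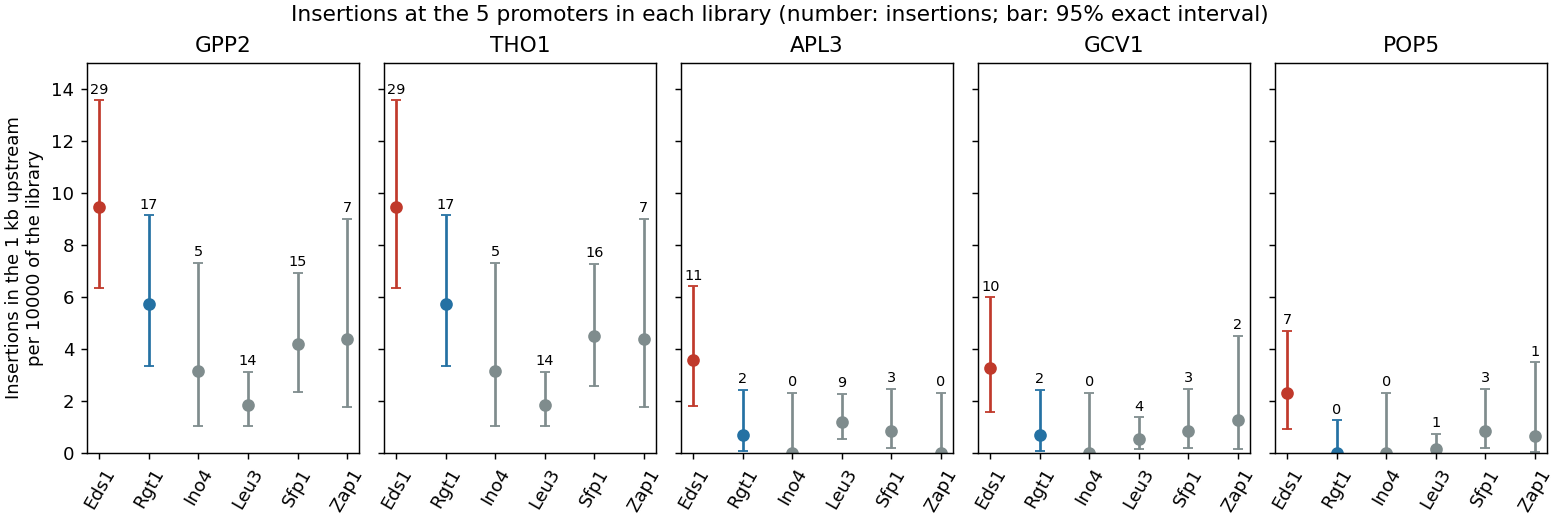
Insertions in the 1 kb upstream of each gene per 10000 of the library (vertical axis), for the 6 libraries (horizontal axis, 1 library each). Points are shares, bars are 95% exact intervals of counting error, and the number above each bar is the count of insertions. Eds1 is highest at all 5 genes, which were chosen by these values. Its interval overlaps that of Rgt1 at each of them, which does not measure the difference. The 95% interval of the ratio of Eds1 to Rgt1 lies above 1 at APL3, GCV1 and POP5 and includes 1 at GPP2 and THO1.

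APL3 on chromosome II took its Eds1 insertions in one short stretch. It held 11 Eds1 and 2 Rgt1 insertions, against 9 for Leu3, 3 for Sfp1 and 0 for Ino4 and Zap1. The shares were 3.58 per 10000 for Eds1 (95% exact interval 1.79 to 6.41) and 0.672 for Rgt1 (0.0813 to 2.43), and a count of 0 allows up to 1.88 per 10000 in Ino4 and 1.87 in Zap1. All 11 Eds1 insertions fell 141 to 264 bp upstream of the start codon, at 146945 to 147068 of the files, a span of 123 bp. Leu3 insertions ran from 125 to 671 bp and entered MRPL16, a mitochondrial ribosomal protein gene on the same strand that ends 323 bp before APL3. In that intergenic part the counts were 11 for Eds1 and 2 for Rgt1, against 6 for Leu3 and 3 for Sfp1. A short stretch was not particular to Eds1 there. The Sfp1 insertions lay 154 to 242 bp upstream, and the Rgt1 insertions at 121 and 295 bp.

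GCV1 on chromosome IV had few insertions outside the Eds1 library. It held 10 Eds1 and 2 Rgt1 insertions, against 4 for Leu3, 3 for Sfp1, 2 for Zap1 and 0 for Ino4. The shares were 3.26 per 10000 for Eds1 (95% exact interval 1.56 to 5.99) and 0.672 for Rgt1 (0.0813 to 2.43). They were 1.25 for Zap1 (0.151 to 4.51), 0.839 for Sfp1 (0.173 to 2.45) and 0.529 for Leu3. The Eds1 insertions lay 105 to 499 bp upstream, at 485470 to 485864 of the files, 7 of them in the 380 bp before the neighbouring gene DAS2 and the other 3 within DAS2. That intergenic part held 0 Rgt1 insertions, against 1 each for Leu3, Sfp1 and Zap1, and the rest of their insertions lay within DAS2.

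POP5 on chromosome I had the fewest insertions and rested on single digits. There were 7 Eds1 and 0 Rgt1 insertions, against 3 for Sfp1, 1 each for Leu3 and Zap1 and 0 for Ino4. The Eds1 share was 2.28 per 10000 (95% exact interval 0.917 to 4.70), whereas the count of 0 allows up to 1.01 per 10000 in Rgt1 and 1.88 in Ino4. Taken against a floor of 3 insertions in the Rgt1 library, Eds1 was at least 2.26-fold higher, a value that leaves out the counting error of the 7, and the exact 95% interval of the ratio begins at 1.40. The 7 Eds1 insertions lay 40 to 644 bp upstream, at 82062 to 82666 of the files, within the 754 bp that POP5 shares with FUN19, a gene transcribed the other way.

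**Figure D2:**
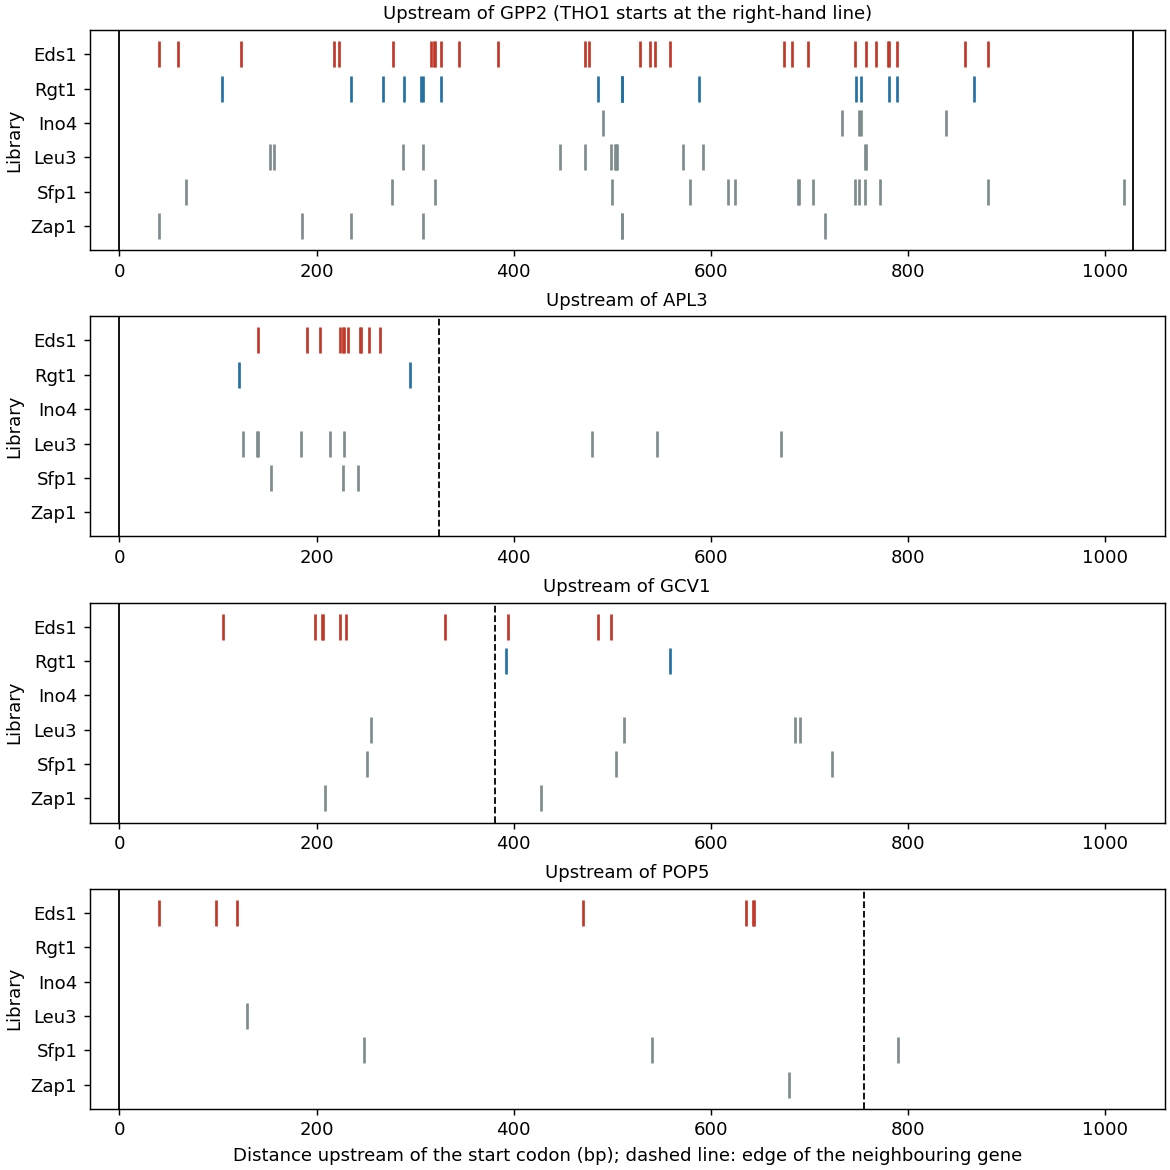
Every insertion in the 4 regions by its distance upstream of the start codon in bp (horizontal axis), with 1 row for each library and Eds1 on top. Solid lines mark start codons and dashed lines the edge of the neighbouring gene. The 11 Eds1 insertions at APL3 lie within 123 bp of a gap of 323 bp, whereas the 29 between GPP2 and THO1 are spread over 841 bp of a gap of 1027 bp.

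Reads behind the Eds1 insertions were few, as throughout that library. Their median was 5 reads between GPP2 and THO1, 10 at APL3, 3.5 at GCV1 and 4 at POP5, and 4, 2, 4 and 3 of the insertions there had a single read. Of 57 Eds1 positions in the 4 regions, 12 held an insertion of another library too, 21.1%, and none of the 17 at GCV1 and POP5 did.

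The lines of the Eds1 file pass through the chromosomes 2 times, and the sources used here do not say what the passes are. The first pass held 23581 insertions and the second 7126. Between GPP2 and THO1 the first pass held 26 insertions and the second 3, which is 11.0 and 4.21 per 10000 of the pass. At APL3 the passes held 6 and 5 insertions, 2.54 and 7.02 per 10000, and at POP5 4 and 3, 1.70 and 4.21 per 10000. All 10 at GCV1 were in the first pass, 4.24 per 10000. By the limit of 3 insertions a count of 0 in the second pass allows up to 4.21. A two-sided exact interval would end higher, so the passes are not shown to differ there. The second pass had 0 to 5 insertions in each region, no difference between the passes was tested, and they were not treated as replicates.

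Outside the windows, which were chosen for their Eds1 counts, Eds1 insertions were fewer. In the 1 kb before the window, from 1 to 2 kb upstream, APL3 had 2 Eds1 insertions, GCV1 0 and POP5 1, which is 0.651, 0 and 0.326 per 10000, against 0.907, 0.558 and 0.628 per 10000 in Ino4, Leu3, Sfp1 and Zap1 pooled. In the first 1 kb from the start codon APL3, GCV1 and POP5 each had 0 Eds1 insertions, against 3, 0 and 5 in the pooled libraries. Next to the region between GPP2 and THO1 the Eds1 share was lower than in the window but not below the pool throughout. The first 1 kb of GPP2 held 1 Eds1 and 1 Rgt1 insertion, or 0.326 and 0.336 per 10000, against 1.05 per 10000 in the pooled libraries. The first 1 kb of THO1 held 4 Eds1 and 2 Rgt1 insertions, or 1.30 and 0.672 per 10000, against 0.768 in the pooled libraries.

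**Figure D3:**
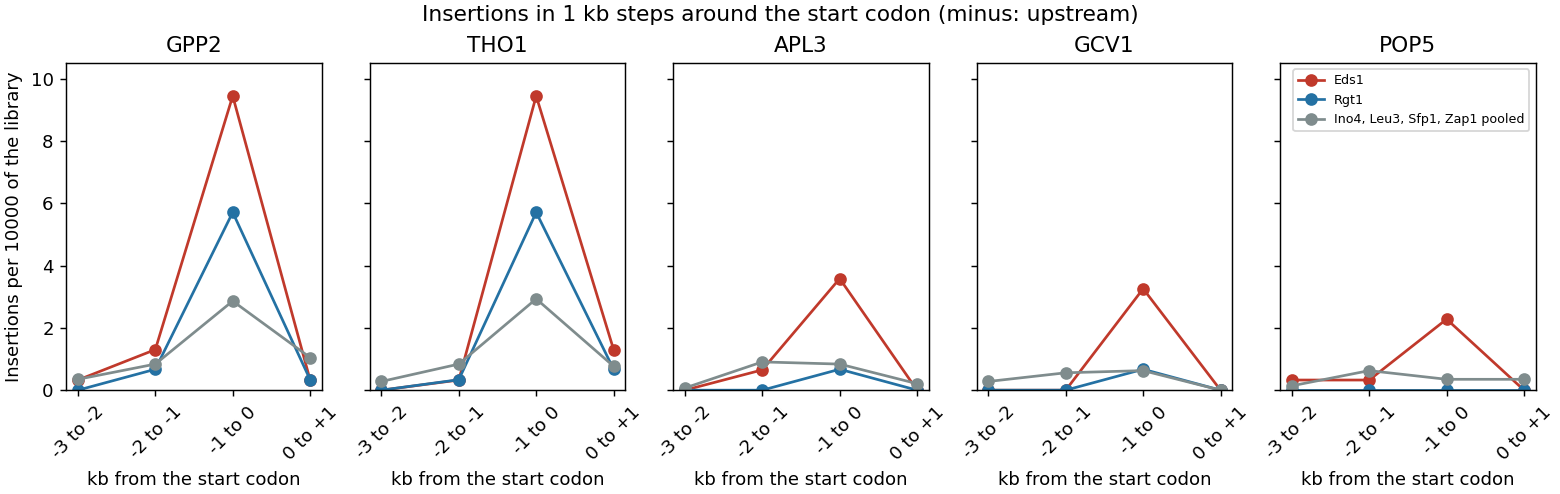
Insertions per 10000 of the library (vertical axis) in steps of 1 kb from 3 kb upstream to 1 kb past the start codon (horizontal axis) for Eds1, Rgt1 and the 4 other libraries pooled. Points are shares without error bars. In the step next to the start codon Eds1 reaches 9.44 at GPP2 and 2.28 at POP5, and it stays at or below 1.30 in every other step shown.

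Set against Ino4, Leu3, Sfp1 and Zap1 pooled, Eds1 had 3.30 times their share at GPP2 (95% interval 1.98 to 5.44), 3.22 times at THO1 (1.94 to 5.30), 4.28 times at APL3 (1.71 to 10.6), 5.18 times at GCV1 (1.89 to 14.4) and 6.53 times at POP5 (1.78 to 26.1). The 5 intervals overlap, and the order of the 5 changed with the setting. By Fisher's exact test of each promoter against the rest of its library, two-sided and adjusted by Benjamini-Hochberg over 4220 promoters with at least 10 insertions, all 5 passed at 0.05, as did 73 promoters in all, or 1.73%, while 2.39% passed with Eds1 lower. The 5 were chosen by this contrast, so nothing is read from that count. POP5, with 7 Eds1 against 5 pooled insertions, stood just inside the threshold, and DUR12, with 16 against 27, and PSY2, with 10 against 12, just outside. Of the 5, 0 passed when insertions within 5 bp were counted once, where the log2 ratio was 1.48 at GPP2, 1.44 at THO1, 1.36 at APL3, 2.09 at GCV1 and 2.16 at POP5, against 1.74, 1.70, 2.11, 2.36 and 2.64 with every insertion counted, and 15 of all promoters passed. APL3 alone passed without the Leu3 library in the pool, which put POP5 at 1.82, GPP2 at 1.24 and APL3 at 2.73, and GPP2 and THO1 alone passed with windows widened by 500 bp at both ends.

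Library by library, the Eds1 share was the higher one at each promoter. At GPP2 the ratio of Eds1 to Leu3 was 5.10 (95% interval 2.61 to 10.4), to Ino4 3.01 (1.15 to 9.97), to Sfp1 2.25 (1.17 to 4.52) and to Zap1 2.16 (0.926 to 5.84). At APL3 it was 3.01 to Leu3 (1.13 to 8.21) and 4.27 to Sfp1 (1.13 to 23.8). At GCV1 it was 6.15 to Leu3 (1.77 to 26.9), 3.88 to Sfp1 (0.999 to 21.9) and 2.61 to Zap1 (0.556 to 24.5). At POP5, where Leu3, Sfp1 and Zap1 had 1 to 3 insertions, the interval to Leu3 alone lay above 1, with a ratio of 17.2 (2.21 to 776.2), against 2.72 to Sfp1 (0.620 to 16.3) and 3.65 to Zap1 (0.469 to 164.6).

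Against Rgt1 alone, Eds1 also had the higher share at all 5 promoters, but none passed. The ratio of Eds1 to Rgt1 was 1.65 at GPP2 and THO1 (95% interval 0.879 to 3.21), 5.33 at APL3 (1.16 to 49.5) and 4.85 at GCV1 (1.03 to 45.5). Of the 4 promoters with enough insertions, all but POP5, 0 passed Fisher's exact test over 1206 promoters, whereas 25.0% of all those tested passed with Eds1 higher and 5.22% with Eds1 lower. At an unadjusted p under 0.05 the count was 2 of 4, against 42.5% of all. The log2 ratio of the median promoter was 1.13, and relative to that median GPP2 and THO1 stood at -0.43, APL3 at 0.83 and GCV1 at 0.70 on the log2 scale with 1 insertion added to each side. With library totals taken without bins holding over 0.1% of any library, the median became -0.25, 0 promoters passed with Eds1 higher, and the log2 ratio at GPP2 and THO1 was -0.68, against 0.69. With each position counted once it was 0.29 there, and with insertions within 5 bp counted once -0.49, where the median promoter stood at 0.55 and -0.26. At APL3 and GCV1 the log2 ratio stayed above 0 in each of these settings.

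Rgt1 itself was not far from enriched between GPP2 and THO1. Its share there was 2.00 times that of the pooled libraries at GPP2 (95% interval 1.06 to 3.59) and 1.95 times at THO1 (1.04 to 3.50), against 0.802 at APL3 (0.0872 to 3.60) and 1.07 at GCV1 (0.112 to 5.17). The log2 ratio of the median promoter was -0.90 for Rgt1, and relative to it GPP2 stood at 1.95, THO1 at 1.91, APL3 at 1.05 and GCV1 at 1.43, the values of APL3 and GCV1 each resting on 2 Rgt1 insertions. All log2 ratios here have 1 insertion added to each side, which raises them at low counts because the pool is larger than the Rgt1 library. At APL3 the log2 ratio is thus 0.15, above 0, though the plain ratio of 0.802 is below 1. Of the 4 tested, 0 passed with Rgt1 higher, where 2.55% of 3847 promoters passed with Rgt1 higher and 9.77% with Rgt1 lower. At an unadjusted p under 0.05 the count was 2 of 4, against 24.1% of all promoters. The 2 were GPP2 and THO1, which are one measurement. GPP2 and THO1 did pass for Rgt1 once totals left out the rich bins, and also once neighbouring insertions up to 5 bp apart were taken as 1. The Rgt1 log2 ratio at GPP2 was then 2.28 with the totals and 1.97 with the merged insertions, against 1.04. With those totals it was 1.39 at APL3 and 1.76 at GCV1, against 0.15 and 0.53, while the median promoter stood at 0.33. With 2, 2 and 0 Rgt1 insertions, APL3, GCV1 and POP5 do not show whether Rgt1 enrichment is absent.

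**Figure D4:**
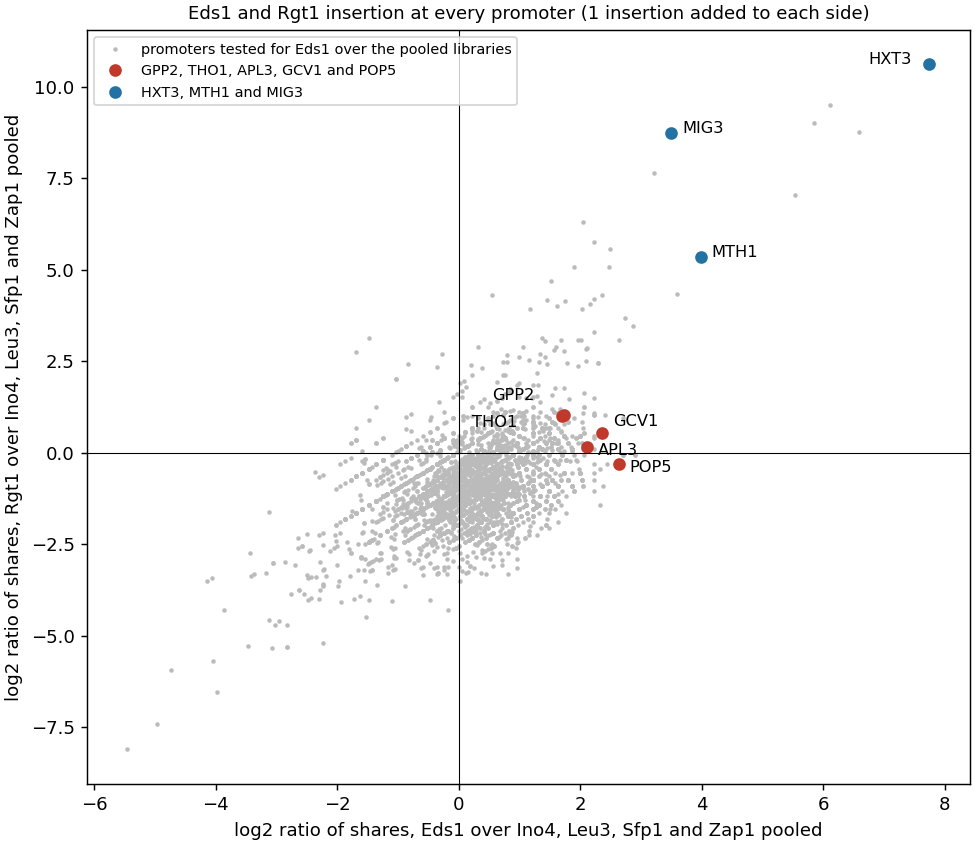
Each point is a promoter tested for Eds1 over the pooled libraries, placed by the log2 ratio of shares of Eds1 (horizontal axis) and of Rgt1 (vertical axis) over Ino4, Leu3, Sfp1 and Zap1 pooled, with 1 insertion added to each side. GPP2, THO1, APL3, GCV1 and POP5 lie to the right of 0 and between -0.32 and 1.04 on the vertical axis, below HXT3, MTH1 and MIG3.

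Eds1 was also raised at 3 promoters rich in Rgt1 insertions, and there the Rgt1 share was the higher one. HXT3, MTH1 and MIG3 were picked for their Rgt1 insertions, and all 3 passed for both TFs over the pooled libraries. HXT3, which encodes a hexose transporter of low affinity, had 368 Eds1 and 2608 Rgt1 insertions, MTH1, of a corepressor of Rgt1, had 84 and 210, and MIG3, of a zinc finger repressor, had 16 and 621, against 7, 24 and 6 in the pooled libraries. Eds1 had 245.3, 16.3 and 12.4 times the share of the pooled libraries at the 3, and 0.137, 0.388 and 0.0250 times the share of Rgt1, against 1.65 to 5.33 times at the 4 of the 5 promoters with Rgt1 insertions.

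Among the 73 promoters that passed for Eds1 over the pooled libraries, 43 passed for Rgt1 too and 30 did not. Some of the 30, POP5 among them, had too few insertions to be tested for Rgt1. The 5 belong to those 30, in which they rank 3rd (POP5), 7th (GCV1), 13th (APL3), 17th (GPP2) and 19th (THO1) by the log2 ratio. The 5 highest were FUN19, which shares its upstream DNA with POP5, RAM2, the gene of a subunit of protein farnesyltransferase, POP5, PTP2, of a protein phosphatase, and RET1, of an RNA polymerase III subunit, each with 7 Eds1 and 0 Rgt1 insertions, against 4 or 5 pooled. Of the 30, 15 also passed for Eds1 over Rgt1, and none of these was one of the 5. Some of the 30, among them FUN19, RAM2, POP5, PTP2 and RET1, had too few insertions for that test too. For them, not passing is not a result. Of all 1206 promoters tested, 25.0% passed with Eds1 higher, but the 30 had been chosen for high Eds1. By count alone the 5 were not at the top of the Eds1 library, where GPP2 and THO1 ranked 79th, APL3 595th, GCV1 680th and POP5 1081st of 6002 promoters.

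Comparisons among the other 4 libraries hold neither Eds1 nor Rgt1 and were not themselves used in the choice. The 5 were still chosen by Eds1 over these 4 libraries pooled, of which Leu3 is the largest with 75550 insertions. Values of the 5 among the 4 libraries are therefore not independent of the choice. GPP2, THO1 and APL3 had enough insertions to be tested, and each of Ino4, Leu3, Sfp1 and Zap1 was set against the remaining 3. None of the 3 promoters passed in any of the 4 comparisons by Fisher's exact test over 3643 promoters, where 1.48% passed with Ino4 higher and 1.95% with Ino4 lower, 4.58% with Leu3 higher and 9.11% with Leu3 lower, 5.11% with Sfp1 higher and 3.18% with Sfp1 lower, and 1.15% with Zap1 higher and 1.89% with Zap1 lower. At an unadjusted p under 0.05 the count was 2 of 3 for Leu3 and 0 of 3 for Ino4, Sfp1 and Zap1, against 26.3%, 12.9%, 19.2% and 11.1% of all promoters. The 2 for Leu3 were GPP2 and THO1, which share their insertions and are one measurement, so nothing is read from that count. The smallest adjusted p was 0.0772, for Leu3 at THO1, with 14 Leu3 insertions against 28 in the other 3, which is 0.448 times their share (0.218 to 0.880). At GPP2 Leu3 had 0.465 times the share of the others (0.225 to 0.918, Fisher's exact test, adjusted p = 0.0965). The median Leu3 log2 ratio of all promoters was -0.57, and relative to it GPP2 stood at -0.49 and THO1 at -0.54. At APL3 the direction was the other way, with 9 Leu3 insertions against 3 (ratio 2.69, 0.671 to 15.4). Sfp1 had 1.74 times the share of the others at GPP2 (0.854 to 3.40) and 1.85 times at THO1 (0.927 to 3.58). With windows of 500 bp THO1 passed for Sfp1, and with windows widened by 500 bp POP5 did.

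The other genes of the 5 pathways were looked up by lists chosen with earlier results of these data known. Of 40 genes in all, 28 were tested for Eds1 over the pooled libraries, of which 1 passed, or 3.57%, against 1.73% of all promoters, and 4 had an unadjusted p under 0.05, which 11.5% of all promoters had. Of 17 tested against Rgt1, 5 passed with Eds1 higher, or 29.4%, against 25.0% of all, and 8 had an unadjusted p under 0.05, which 42.5% of all had. Over the pooled libraries the median log2 ratio of the tested genes was 0.62 in glycerol metabolism, 0.35 in glycine cleavage and one-carbon metabolism, 0.41 in AP-2 and clathrin, 0.86 in RNase P and MRP and -0.05 in mRNP assembly, against 0.32 for all promoters. Nothing particular to these lists is read from counts of 1 and 5. The 5 that passed over Rgt1 were GPP1, GCY1, MIS1, POP3 and POP6, and these passes depend on the counting. With totals without rich bins 0 of 1206 promoters passed over Rgt1, and with insertions within 5 bp counted once 1 of 1051 did.

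In glycerol metabolism 1 of 9 tested genes passed over the pooled libraries, DAK2, which encodes a dihydroxyacetone kinase. It had 10 Eds1 and 15 Rgt1 insertions, against 6 pooled (Eds1 ratio 7.78, 2.56 to 26.0, Fisher's exact test, adjusted p = 0.00303), and Rgt1 passed there as well. GPP1, the paralog of GPP2, had 29 Eds1 and 8 Rgt1 insertions, against 88 pooled. Its Eds1 count equals that of GPP2, but the Eds1 ratio over the pooled libraries was 1.54 (0.974 to 2.36), since those had 88 insertions there and 41 at GPP2. Against Rgt1 it passed, with a ratio of 3.52 (1.57 to 8.90, Fisher's exact test, adjusted p = 0.00800), as did GCY1, of an aldo-keto reductase active on glycerol, with 16 Eds1 and 3 Rgt1 insertions.

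In the other lists 0 genes passed over the pooled libraries, of 7 tested in glycine cleavage and one-carbon metabolism, 3 in AP-2 and clathrin, 5 in RNase P and MRP and 4 in mRNP assembly. The partners of Gcv1 in the glycine cleavage complex had few insertions, GCV2 with 2 Eds1 and 0 Rgt1 against 10 pooled, GCV3 with 2 and 0 against 6, and LPD1 with 3 and 0 against 17. SHM1, the gene of mitochondrial serine hydroxymethyltransferase, had 7 Eds1 and 2 Rgt1 insertions, against 8 pooled (ratio 4.08, 1.26 to 12.9, Fisher's exact test, adjusted p = 0.154). Of the AP-2 subunits, APL1 had 5 Eds1 and 0 Rgt1 insertions, against 6 pooled, APS2 had 5 and 0, against 38, and APM4 had 0 of both, against 7. Among RNase P and MRP genes POP3 had 34 Eds1 and 3 Rgt1 insertions, against 89 pooled, and passed over Rgt1 (ratio 11.0, 3.46 to 55.9, Fisher's exact test, adjusted p = 5.13e-06), as did POP6 with 10 Eds1 and 0 Rgt1. In one-carbon metabolism MIS1, of the mitochondrial C1-tetrahydrofolate synthase, passed over Rgt1 with 14 Eds1 and 2 Rgt1 insertions. None of these passes over Rgt1 held with totals without rich bins. In mRNP assembly TEX1, of a subunit of the TREX complex, had 9 Eds1 and 1 Rgt1 insertions, against 66 pooled, and YRA1, of an mRNA export adaptor, had 4 and 9, against 26.

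The promoters most like the sum of the 4 regions over the 6 libraries, by the root mean square difference of log2 shares centred on their mean, were IMA1 (0.258), YLR036C (0.260), SFH5 (0.297), PKP2 (0.373) and YMR099C (0.373), of 2468 with at least 20 insertions in all. IMA1, the gene of an isomaltase, had 9 Eds1 and 4 Rgt1 insertions, against 13 in the other 4 libraries. This likeness rests on 6 values and small counts, and is a description.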

How the data were processed

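Calling cards insertions of 6 TFs were used, with 1 library per TF. The authors digested genomic DNA with 3 restriction enzymes, circularised it, amplified the DNA next to Ty5 by inverse PCR and sequenced it. The submitters' processing notes name Novoalign, but the sources used here give no version. The values deposited are counts of reads behind each insertion, with chromosome and position and no normalization. Each line was counted as 1 insertion whatever its reads. Positions were taken as those of genome release R61, and start codons from the RefSeq gene table of R64, with strand read from the locus tag. The share of distinct positions inside genes was lowest at a shift of -30 to 20 bp on 15 chromosomes and of 300 bp on XI, which holds none of the 5 genes. Neighbouring windows overlap, so tests of divergent genes are not independent.

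Shares were compared by Fisher's exact test, two-sided, with Benjamini-Hochberg adjustment over all promoters with at least 10 insertions in the libraries compared. A promoter passed at an adjusted p under 0.05. All 5 promoters met that minimum against the pooled libraries and 4 against Rgt1. GCV1 and POP5 would not have met it without their Eds1 insertions, nor APL3 against Rgt1. Ratios of shares have exact 95% binomial intervals, and 1 insertion was added to either side for log2 ratios. A count of 0 allows up to 3 insertions per library. PCR reads carry no molecular identifiers, so intervals cover counting error only. The members and gene lists were chosen with earlier results of these data known. Named genes were the 5, their neighbours, the pathway lists, HXT3, MTH1 and MIG3, the 5 highest Eds1 ratios without Rgt1, and the 5 nearest profiles. DUR12 and PSY2 were named after their values were seen. Of the pathway lists, values were printed for some genes that did not pass, such as SHM1, TEX1 and YRA1, and not for all. The window, the counting of positions and reads, the passes of the Eds1 file, the library totals, the pool, the minimum and the sidedness were varied. The test was run on simulated counts drawn independently for each promoter. These lack the close and repeated positions of the real libraries, so that check does not cover them. Python 3.11.15, NumPy 2.4.6, pandas 2.3.3, SciPy 1.17.1 and matplotlib 3.10.9 were used. DNA sequences, other TFs of the study and its expression data were not analysed here.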

Additional observations from a re-analysis of the deposited data

How the results depend on the processing

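No paired analysis was possible because each TF has 1 library. Of 18 settings, each run where it applies, the log2 ratio of Eds1 over the pooled libraries stayed above 0 in all for GPP2, THO1 and POP5. Passing the test held less often. POP5 passed in 2 of the 18 settings, against 13 for GPP2 and for THO1 and 11 for APL3 and for GCV1. With windows moved 500 bp away from the gene the log2 ratio was -1.59 at GCV1, with 0 Eds1 against 13 pooled insertions, and -0.000215 at APL3, with 2 against 13. A value above 0 can come from the insertion added to each side, because the pool is larger than the Eds1 library. With the second pass alone GCV1 had 0 Eds1 against 9 pooled insertions, yet a log2 ratio of 1.01. The median promoter then stood at 0.74. Counts of promoters passing with the first-named TF higher moved by over 1.5 times as follows, and the cause was not tested. For Eds1 over Rgt1 (301) they were 73 with 500 bp windows, 514 with widened windows, 157 and 123 with windows moved away from and into the gene, 20 with each position once, 1 with insertions within 5 bp once, 56 with the second pass of the Eds1 file, 0 with totals without rich bins and 93 with at least 1 insertion. For Eds1 over the pooled libraries (73) they were 44 with 500 bp windows, 15 with insertions within 5 bp once and 45 without Leu3. For Rgt1 over the pooled libraries (98) they were 63 with windows moved away and 164 with totals without rich bins. For Ino4 over Leu3, Sfp1 and Zap1 (54) they were 23 with windows moved away, 28 with each position once, 1 within 5 bp, 29 without rich bins, 32 one-sided, 27 without Leu3 and 86 without Sfp1. Likewise for Leu3 over the remaining 3 (167) the count was 2 within 5 bp. For Sfp1 (186) they were 90 with windows moved away, 74 with each position once, 0 within 5 bp, 69 without rich bins and 27 without Leu3. For Zap1 (42) they were 5 within 5 bp, 27 without Leu3 and 76 without Sfp1. Of the 5 promoters, the number passing for Eds1 over the pooled libraries was also 1 with windows moved away, 3 with windows moved into the gene, with each position once, with at least 2 reads, one-sided, and with the first pass alone, and 1 with the second. For Eds1 over Rgt1 it was 2 with at least 2 reads and 1 with widened windows, one-sided, and with the first pass. Counts of 7 to 29 insertions limit every value of the 5.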
